A study of Mus musculus with 4 samples.

Results

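The genes described here encode the replication-dependent histones, the linker histone H1 and the core histones H2A, H2B, H3 and H4, in mouse testis at postnatal day 7. Members were the genes whose present or former symbol begins with Hist1h, Hist2h, Hist3h or Hist4h. The RefSeq gene table of assembly GRCm38.p6 lists 70 such genes, of which 31 had a probe matched by accession among 33390 features on the array. Of these 31, 28 were tested, namely 6 H1, 8 H2A, 6 H2B, 3 H3 and 5 H4 genes. The 39 genes without a matched probe are not analysed here, and H2ac6, H2ac8 and H2bc6 had a probe that was not well above background on any array.

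The mice carried a transgene in which a Nanos2 enhancer and the Nanos2 3'UTR flank 3xFLAG-Nanos2, so that the tag marks NANOS2, a germ cell protein that binds RNA. Input testis RNA (Input, 2 arrays) was set against RNA of the FLAG immunoprecipitate (FLAG IP, 2 arrays) on single-colour Agilent arrays, to find mRNAs associated with NANOS2. All 4 samples were labelled male, postnatal day 7 and of this one genotype, although their description field names an embryonic gonad. The duplicates are biological per the design text, no animals are named, and the p-values measure the spread between these samples. The labels' protocols cover total RNA extraction and not the immunoprecipitation, and an untagged control was not analysed here. A change below therefore says how much of an array's signal a transcript held, not whether NANOS2 bound it.

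Replication-dependent histone genes are transcribed in S phase, when new DNA must be wrapped in nucleosomes, and most lie in gene clusters in many near-identical copies. Their mRNAs end in a conserved stem-loop, held by the stem-loop binding protein SLBP, and most carry no poly(A) tail. Replacement histones such as H3.3 are made from polyadenylated mRNAs throughout the cell cycle. The labelling kit named in the protocols primes from poly(A) tails, so signal from these genes depends on whatever tailed or A-rich transcript was copied, and that dependence was not tested. Probe sequences are not in the files used here. A probe's value may include transcripts of near-identical members, so values are described by the gene each probe is named for.

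Each level is a log2 signal minus the 75th percentile of its array, and a change is FLAG IP minus Input on that scale with the standard error (SE) of limma, n = 2 arrays per group. A gene was called at an adjusted p under 0.05 in limma with Benjamini-Hochberg adjustment over all 21589 features tested. Between 66.3% and 68.4% of probes were well above background per array, all arrays lay on 1 slide with 1 scan time, and the number of arrays limits the precision. Among all tested features 15.8% were called higher in the FLAG IP and 21.3% lower, and the markers of testis cell types are read beside these shares. Of the markers of undifferentiated spermatogonia 7 of 9 were higher in the FLAG IP, with a summed log2 level of 3.80 to 4.10 against 1.87 to 1.91 in the Input, while 0 of 4 general germ cell markers were called by limma. Among somatic markers 2 of 7 for Sertoli cells, 2 of 5 for Leydig cells, 2 of 4 for peritubular cells, 3 of 3 for macrophages and 1 of 2 for red blood cells were lower, and 0 of 4 for endothelial cells; the Sertoli share lies near that of all features. The summed Sertoli level was 6.84 to 6.86 in the Input and 6.37 to 6.44 in the FLAG IP, and that of Leydig cells 4.82 to 5.22 and 3.74 to 4.10. Each sum weighs the brightest marker most, and the brightest Sertoli marker was not called. The part of these markers in the histone result was not tested. A lower marker here held a smaller share of the signal in the FLAG IP than in the Input, and cell numbers were not measured.

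Histone transcripts were lower in the FLAG IP or did not pass the test, and the classes differed in how far. In limma 12 of the 28 tested genes (42.9%) were lower and 0 were higher, against 37.1% of all tested features called, 21.3% lower and 15.8% higher. At an unadjusted p under 0.05, 15 were lower and 0 higher. The median change of the members was −0.62, beside −0.15 for all features. Both FLAG IP arrays lay below both Input arrays for 18 of 28 genes (64.3%), beside 44.7% of all features, and above them for 0 genes, beside 29.8%. A change of at least 2-fold lower was seen in 8 genes, beside 9.89% of all features. H2A and H2B together held 10 of the 12 calls, with a median change of −1.03 over 14 genes, whereas H1, H3 and H4 held 2 calls, with a median of −0.28 over 14 genes.

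The calls rest on both Input arrays, and calls over all features also became far fewer when either of these was left out. Without Input replicate 1 or Input replicate 2 limma called 0 histone genes, with 9 and 16 at an unadjusted p under 0.05, and adjusted p for the 12 called genes ran from 0.088 to 0.20 and from 0.053 to 0.17. Without FLAG IP replicate 1, 5 of the 12 were called, and with no filter on dim probes 4. Of the ways of processing the arrays, 9 moved the change of a called gene by over 0.01, and in these all 12 stayed below 0. Most of these could not have turned a sign. Both FLAG IP arrays lay below both Input arrays for each of the 12, which fixes the sign when 1 array is left out. Spike-in scaling lowers every gene, and median centring moved changes by 0.013. Quantile normalization, normexp background correction and averaging a gene's probes could have turned it. Scaling to spike-in control spots moved the median of all features to −1.13 and called all 28 histone genes lower. The fit under this scaling gave each histone gene the same SE, 0.41. Its calls therefore follow the size of the change alone and carry no separate spread per gene. Among all calls 4.02% were then higher in the FLAG IP, against 42.6% under the 75th percentile scaling. The histone median stood at −1.60 there, a median of −0.47 relative to that of all features, the same as under the 75th percentile scaling.

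**Figure D1:**
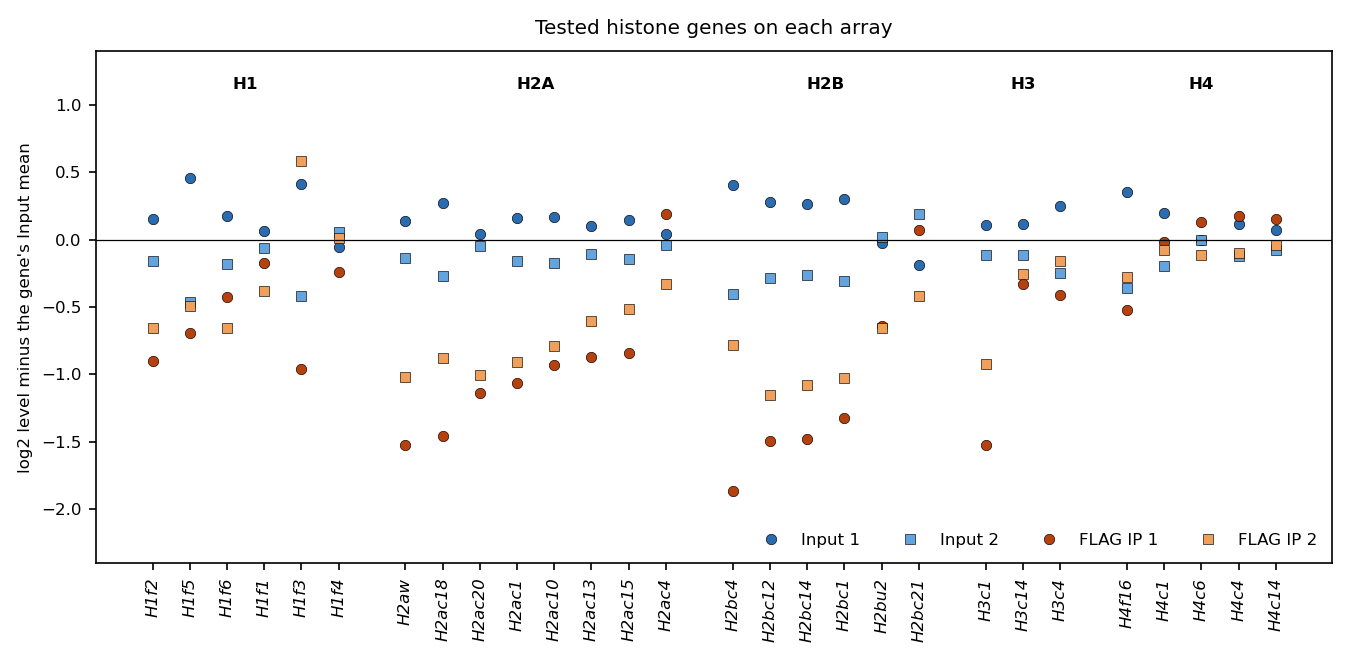
Log2 level of each of the 28 tested histone genes on each array, minus the mean of that gene's Input arrays (vertical axis), ordered by histone class and change; blue points are Input arrays and orange points FLAG IP arrays. Most H2A and H2B genes have both FLAG IP points below both Input points, whereas the points of the 5 H4 genes overlap.

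H2A, which pairs with H2B in the nucleosome, had 6 of its 8 tested genes lower, beside 21.3% of all features. Its median change was −0.92, a 1.89-fold decrease. Under quantile normalization the median was −0.62, with 5 of the 8 lower. H2aw, the former Hist3h2a (RefSeq transcript NM_178218), had levels of 3.80 and 3.52 on the Input arrays and 2.13 and 2.64 on the FLAG IP arrays. The groups did not overlap, and the gene fell by 1.27 ± 0.23 (SE, adjusted p = 0.018 in limma). Its other probe, read at 1.51 and 1.31 against 0.29 and 0.51, gave a change of −1.01 ± 0.16, so both probes of this gene were lower.

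H2ac20, the former Hist2h2ac (NM_175662), read 6.20 and 6.12 in the Input and 5.03 and 5.15 in the FLAG IP. Replicates differed little beside the gap between the groups, and the gene fell by 1.07 ± 0.14 (adjusted p = 0.0095 in limma), the smallest adjusted p among the members under this fit. H2ac1, the former Hist1h2aa (NM_175658), encodes the testis variant TH2A, which enters chromatin of germ cells. Its levels were 6.61 and 6.29 in the Input against 5.39 and 5.55 in the FLAG IP, a change of −0.99 ± 0.18 (adjusted p = 0.017). H2ac18, the former Hist2h2aa1, went from −0.76 and −1.30 to −2.48 and −1.90, a change of −1.16 ± 0.29 (adjusted p = 0.036).

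H2ac10 and H2ac13, canonical H2A genes of the Hist1 cluster, also fell. H2ac10 read 6.45 and 6.10 against 5.34 and 5.49, a change of −0.86 ± 0.18, and −0.71 ± 0.16 at its other probe, although it was not called under quantile normalization (−0.36, adjusted p = 0.10). H2ac13 read 1.99 and 1.78 against 1.02 and 1.28, a change of −0.74 ± 0.17. H2ac15 had a similar gap, 2.96 and 2.67 against 1.97 and 2.30, and missed the threshold at −0.68 ± 0.19 (adjusted p = 0.052 in limma). H2ac4 differed from the rest of its class in that its arrays overlapped, at −2.74 and −2.83 against −2.59 and −3.11 (change −0.07 ± 0.22). Of the 6 H2A calls, 3 held without FLAG IP replicate 1 and 0 without either Input array, where adjusted p ran from 0.073 to 0.20.

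H2B genes had the lowest median change of the 5 classes, −1.23 over 6 genes. Of the 6, 4 were lower, beside 21.3% of all features. H2bc12, the former Hist1h2bk (NM_175665), read 0.37 and −0.20 in the Input and −1.41 and −1.06 in the FLAG IP. That is a fall of 1.32 ± 0.25 (adjusted p = 0.020 in limma), and its other probe gave −1.31 ± 0.31. H2bc14, the former Hist1h2bm (NM_178200), read 0.41 and −0.12 against −1.34 and −0.94, a change of −1.28 ± 0.25 (adjusted p = 0.021). For both genes the Input arrays differed from each other by over 0.5, and both FLAG IP arrays were still lower than either. The brighter H2bc12 probe and the H2bc14 probe read near each other on each array. Whether they read the same transcripts was not tested.

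H2bc1, the former Hist1h2ba (NM_175663), encodes TH2B, the testis form of H2B that replaces canonical H2B in meiotic cells. It read −0.60 and −1.21 in the Input and −2.23 and −1.93 in the FLAG IP, a change of −1.17 ± 0.26 (adjusted p = 0.027 in limma). TH2A and TH2B are transcribed away from each other from a shared promoter. The probes named for them were lower in the FLAG IP, by 1.98-fold and 2.25-fold. The H2ac1 probe read near that of H2ac10 on each array (6.45 and 6.10 against 5.34 and 5.49). Whether the H2ac1 probe also reads transcripts of other H2A genes was not tested. H2bu2, the former Hist3h2ba, read −1.68 and −1.64 against −2.31 and −2.32, a smaller change of −0.65 ± 0.13 (adjusted p = 0.023) with close replicates.

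H2bc4 and H2bc21 were not called, for different reasons in their values. H2bc4, the former Hist1h2bc, read −0.70 and −1.51 against −2.97 and −1.89, so its mean change of −1.32 ± 0.46 came with replicates up to 1.08 apart (adjusted p = 0.080 in limma). H2bc21, the former Hist2h2be, read −0.44 and −0.06 against −0.18 and −0.66, with overlapping groups and a change of −0.17 ± 0.24. Without FLAG IP replicate 1, 1 of the 4 H2B calls held, and without Input replicate 1 or 2 none did (adjusted p from 0.053 to 0.17).

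**Figure D2:**
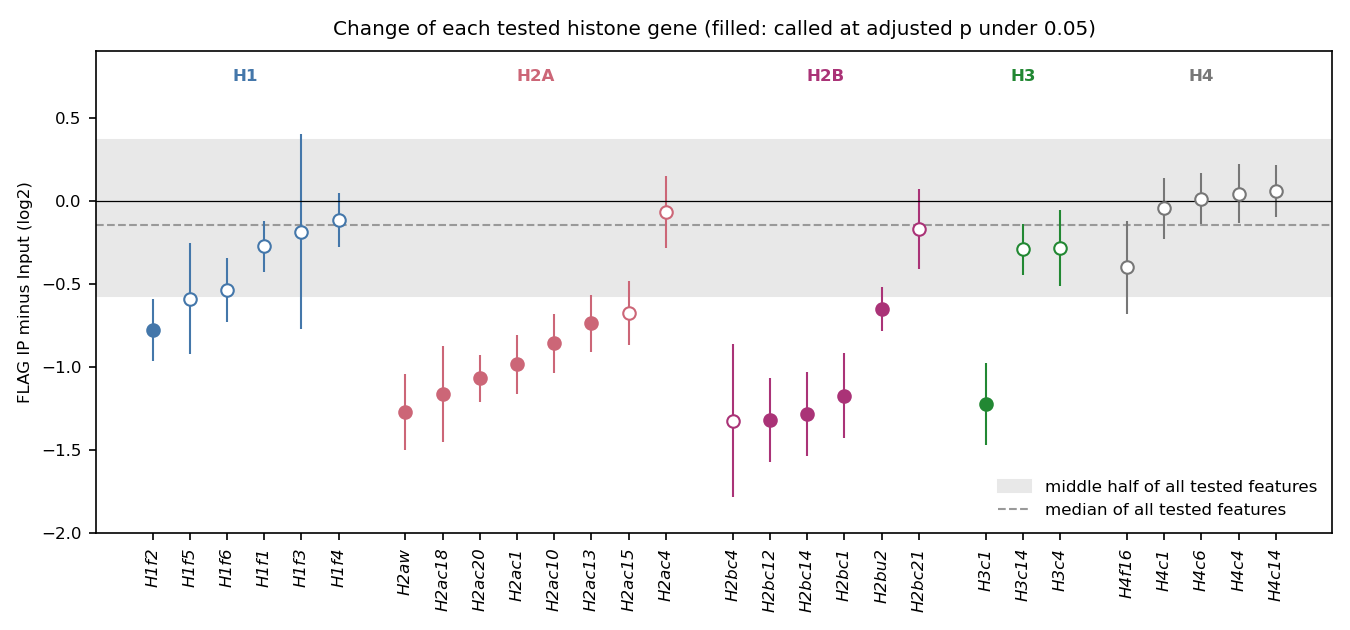
Change of each tested histone gene (FLAG IP minus Input, log2, vertical axis) with its limma standard error, by class; filled points were called and open points were not, the grey band runs from the lower to the upper quartile of all 21589 tested features and the dashed line is their median of −0.15. The 6 called H2A and 4 called H2B genes lie between −1.32 and −0.65, below the band, and the H4 genes lie within it.

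The octamer ATTTGCAT, known as a site of the factor OCT1 in H2B promoters, was searched on both strands from 250 bases before to 50 bases after each gene's start in RefSeq's GRCm38.p6 promoters, which matched 27 of the 31 genes with a probe. It occurred in 4 of 5 H2B genes and 6 of 10 H2A genes, in 0 of 6 H1, 0 of 2 H3 and 0 of 4 H4 genes, and in 1.74% of all 32851 promoters. The other H2A genes and H2bu2 lacked it, as the matched H1, H3 and H4 genes did, and no test of a difference between classes was run. H4c14, H3c1, H2bc4 and H2bc21 had no matched promoter, so the called H3 gene and the uncalled tested H2B genes are not counted. Of the genes with the octamer, H2ac6, H2ac8 and H2bc6 were not tested for a change. The windows below are shown because they carry the octamer in 3 called H2B genes and in 1 called H2A gene, where it lies on the other strand. Capitals mark the octamer, as ATGCAAAT where it is read from the other strand.
H2bc12, chr13:22035780-22035809, plus strand: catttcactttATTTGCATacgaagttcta
H2bc14, chr13:21722008-21722037, plus strand: ctctcgtctctATTTGCATaacagcgtgta
H2bc1, chr13:23934302-23934331, minus strand: gaattccccttATTTGCATgcacccagcac
H2aw, chr11:58954555-58954584, plus strand: gggtaaggcatATGCAAATtaggaaggctc
The promoter windows of H2bc1 and H2ac1 share 220 bases on opposite strands, so that 1 octamer counts for both. Within H2A the changes of genes with and without the motif overlapped, and a link between motif and change was not tested. The 4 tested H2A genes with it had changes of −1.27 (H2aw), −1.07 (H2ac20), −0.99 (H2ac1) and −0.07 (H2ac4), and H2ac18, without it, had −1.16.

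H1 linker histones, which bind DNA between nucleosomes, had 1 of 6 genes lower (16.7%), near the 21.3% of all features. The median change of the class was −0.41, beside −0.15 for all features. H1f2, the former Hist1h1c (NM_015786), read 1.03 and 0.72 in the Input and −0.03 and 0.22 in the FLAG IP, a fall of 0.78 ± 0.18 (adjusted p = 0.033 in limma) that was not called without Input replicate 1, Input replicate 2 or FLAG IP replicate 1 (adjusted p 0.20, 0.11 and 0.080), or with no filter on dim probes (0.068). The median of the class was −0.19 without Input replicate 1 and −0.66 without Input replicate 2. H1f4, the former Hist1h1e, read 0.17 and 0.29 against −0.01 and 0.24, a change of −0.12 ± 0.16. The arrays of H1f4 overlapped where those of H1f2 did not.

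H1f5, the former Hist1h1b, read −0.89 and −1.81 against −2.04 and −1.84. Most of that difference lay with Input replicate 1, and the change of −0.59 ± 0.33 was not called. H1f1 read −1.93 and −2.05 against −2.16 and −2.37, a change of −0.27 ± 0.15. H1f3 had the widest replicate spread of all members, −3.87 and −4.69 against −5.24 and −3.69, with a change of −0.19 ± 0.59, and its dimmer probe moved in the same way between arrays, at −5.81 and −6.38 against −7.21 and −5.86. H1f6 encodes H1t, the linker histone of meiotic spermatocytes. It read −5.62 and −5.97 on the Input arrays, where it was well above background, and was not well above background on either FLAG IP array (−6.21 and −6.45). The fit did not call it (−0.54 ± 0.19, adjusted p = 0.085 in limma), and its change was 0.21 with normexp background correction, so no direction is given.

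The element AAACACA, known as the H1 box, occurred in 5 of 6 H1 promoters, 2 of 10 of H2A, 2 of 5 of H2B and none of the 2 H3 and 4 H4 promoters, on either strand, beside 7.18% of all promoters. Windows of the called H1f2 and of H1f4, whose arrays overlapped, are shown, since both hold the box behind near-identical letters. Capitals mark the box.
H1f2, chr13:23738684-23738713, plus strand: tgaagtgtaacAAACACAagttgggcgcag
H1f4, chr13:23622655-23622684, minus strand: tgaggtgtaacAAACACAactccgcatctg
The match begins 112 bases before the start of H1f2 and 115 before that of H1f4. The CCAAT box, a common promoter element, was in 25 of 27 members and 37.4% of all promoters, in both cases on either strand, and both members without it were H4 genes. TATAAA was in 18 of 27 and in 13.6%.

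H3 was represented by 3 genes that did not move alike. H3c1, the former Hist1h3a (NM_013550), read −3.23 and −3.45 in the Input and −4.86 and −4.26 in the FLAG IP, and fell by 1.22 ± 0.25 (adjusted p = 0.023 in limma). It was not called without Input replicate 1 or 2 (adjusted p 0.13 and 0.092) or with no filter on dim probes (0.061), and its change was −0.53 with normexp background correction. H3c14, the former Hist2h3c1, read 6.20 and 5.97 against 5.76 and 5.83, a change of −0.29 ± 0.15, and H3c4, the former Hist1h3d, read 5.30 and 4.80 against 4.64 and 4.89, a change of −0.28 ± 0.23. The arrays of H3c14 were just apart and those of H3c4 overlapped. The other 9 H3 genes of the table had no matched probe, so these values stand for a small part of the class. The median of the 3 was −0.29, and 0.06 under quantile normalization.

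H4 is the partner of H3 and the class with identical protein copies from many genes. It had 0 of 5 genes called by limma, beside 37.1% of all features, and 0 at an unadjusted p under 0.05. Its median change was 0.01 under the 75th percentile scaling and −0.97 under spike-in scaling, which stands 0.16 above the median of all features under that scaling. H4c4, the former Hist1h4d (NM_175654), read 1.30 and 1.06 in the Input and 1.36 and 1.09 in the FLAG IP, a change of 0.04 ± 0.18, and its other probe gave 0.01 ± 0.17. H4c6, the former Hist1h4f, read 1.71 and 1.71 against 1.84 and 1.60, and H4c14, the former Hist2h4, 0.22 and 0.07 against 0.30 and 0.11. Their changes were 0.01 ± 0.15 and 0.06 ± 0.15, and those of H4c4, H4c6 and H4c14 stood at −0.94, −0.97 and −0.92 under spike-in scaling.

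H4c1 read −0.16 and −0.55 against −0.37 and −0.43 (change −0.04 ± 0.19). H4f16, the former Hist4h4 and the sole member of its cluster, was the H4 gene with the lowest value, at −1.20 and −1.92 against −2.09 and −1.84 (change −0.40 ± 0.28, adjusted p = 0.30 in limma). The groups of all 5 H4 genes overlapped. Spike-in scaling, which lowers every gene, called all 5 lower, with changes of −0.92 to −1.38.

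The difference between classes can be read within each array, where a scaling factor cancels. Each gene was taken relative to its own Input mean. The median of H2A and H2B genes minus that of H4 genes was then 0.03 and −0.03 on the Input arrays. These values mirror each other around 0 by construction, so they do not show that a gap was absent. On FLAG IP replicates 1 and 2 the same difference was −1.23 and −0.74. H4 was thus 2.35-fold and 1.67-fold ahead of H2A and H2B on the FLAG IP arrays. With 2 arrays per group no permutation of samples can pass a threshold, and this gap is a description. The plan counted the classes separately. Setting H2A with H2B against H4, the class with the highest median, was not part of it. The median of H2A lay below that of H4 in all 8 ways of processing that moved the gap by over 0.01, with gaps of −1.13 to −0.67, and that of H2B in all 7 that did so, with gaps of −1.54 to −0.81. For H3 the gap was −0.30, with a range of −0.55 to 0.02, and the sign turned under quantile normalization.

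**Figure D3:**
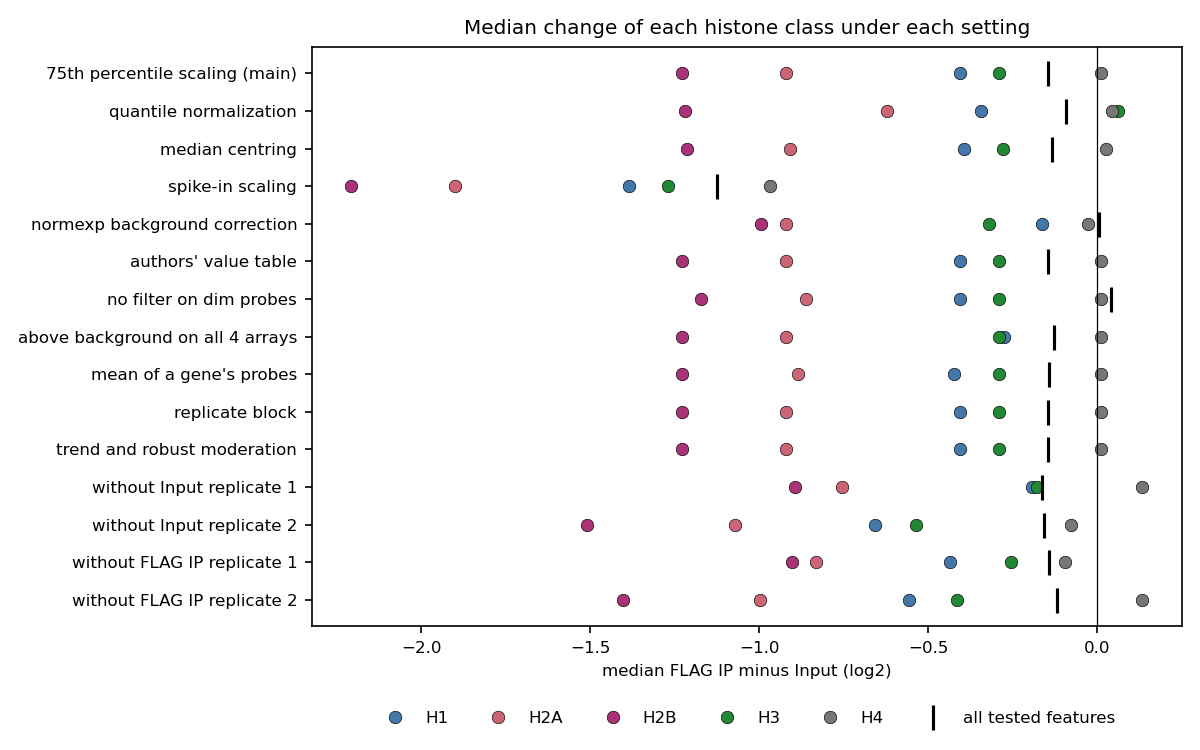
Median change of each histone class (FLAG IP minus Input, log2, horizontal axis) under the main setting and each other way of processing (rows), with the median of all tested features as a black tick. H2A and H2B lie left of H4 in every row, and under spike-in scaling all classes and the tick shift left together, H4 to −0.97.

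Replicates of the Input were not equal for these genes. Input replicate 1 was above Input replicate 2 for 25 of 28 members, with a median difference of 0.30, beside 48.8% of all features and a median of −0.01. FLAG IP replicate 1 was above FLAG IP replicate 2 for 9 of 28, with a median difference of −0.22, beside 54.9% and 0.04. The Input difference was 0.55 at the median for H2B and 0.24 for H4. The change of the H2B genes was accordingly −0.89 at the median without Input replicate 1 and −1.51 without Input replicate 2.

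By gene cluster, 8 of 20 tested genes of Hist1 were lower (median −0.63), 2 of 5 of Hist2 (−0.29), both of Hist3 (−0.96) and 0 of 1 of Hist4, beside 21.3% of all features called lower and their median of −0.15. The Hist3 genes are an H2A and an H2B, and within Hist1 and Hist2 the uncalled genes included all H4 members.

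Histone variant genes outside the symbol rule, most of which give polyadenylated mRNAs, were also lower or uncalled. Of 13 tested 7 were lower and 0 higher, with a median change of −0.77, beside 21.3% lower, 15.8% higher and a median of −0.15 over all features. Macroh2a2, a large H2A variant of silent chromatin, read −1.70 and −1.60 in the Input and −3.06 and −3.08 in the FLAG IP, a change of −1.42 ± 0.14 (adjusted p = 0.0056 in limma). H2aj, an H2A variant, read 6.60 and 6.37 against 5.42 and 5.55 (adjusted p = 0.013), and its other probe changed by −0.35. The brighter H2aj probe read near the H2ac1 probe on each array (6.61 and 6.29 against 5.39 and 5.55). Whether it also reads transcripts of other H2A genes was not tested. H1f10 changed by −0.93 ± 0.13, and H1f0, the linker histone of resting cells, by −0.90 ± 0.16. H3f3a and H3f3b both encode the replacement histone H3.3 and were named after their values were seen. H3f3a was lower at −0.85 ± 0.17, with −1.59 and −1.57 at its other probes, and H3f3b was not called at −0.29 ± 0.14. Without Input replicate 1 or 2 none of the 13 was called by limma, and spike-in scaling called 12 lower.

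Genes of the histone mRNA machinery had calls in both directions. Slbp, whose protein binds the stem-loop, read 3.62 and 3.46 in the Input and 4.22 and 4.62 in the FLAG IP, and rose by 0.88 ± 0.19 (adjusted p = 0.026 in limma), but stood at −0.10 under spike-in scaling. Of 34 tested genes of histone transcription, 3′ end processing and decay 11 were higher, 3 lower and 20 not called, with a median of −0.14, beside 15.8% higher, 21.3% lower and a median of −0.15 over all features. The higher ones included Ccne1, the cyclin that starts S phase (1.93 ± 0.18), Eri1, an exonuclease that trims the stem-loop (1.54 ± 0.18), and Tut4, a terminal uridylyl transferase (1.48 ± 0.14). The probes of Eri1 other than the one used ranged from 0.75 to 1.62. Fip1l1, of the cleavage and polyadenylation complex, changed by −1.25 ± 0.22, and by −0.51 at its other probe. Npat, the coactivator of histone genes, had no matched probe. Without Input replicate 1 or 2 the calls in this list were 2 higher and 0 lower in each case, and under spike-in scaling 1 higher and 19 lower.

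Histone chaperones, which carry histones to DNA, had calls in both directions, with 6 of 24 higher, 4 lower and a median of −0.02, beside 15.8% higher, 21.3% lower and a median of −0.15 over all features. Spty2d1, an H3 and H4 chaperone, rose by 1.67 ± 0.14 (adjusted p = 0.0049 in limma), Hjurp, which loads CENP-A at centromeres, by 1.51 ± 0.18, and Chaf1a, the large subunit of the replication chaperone CAF-1, by 1.48 ± 0.18. Rbbp4, a CAF-1 subunit found in other complexes too, changed by 1.57 ± 0.32, with other probes from −0.41 to 1.81, and the other probe of Hjurp gave 0.06. Without Input replicate 1 there were 3 calls in this list, all higher, and without Input replicate 2 there was 1. Spike-in scaling called 0 higher and 15 lower.

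S phase genes, read as the partners of histone synthesis in the cycle, had 5 of 23 higher and 1 lower, with a median of −0.03. The share called higher is near the 15.8% of all features, of which 21.3% were lower, with a median of −0.15. Cdc6, which loads the replicative helicase, was 2.46-fold higher, but changed by 0.02 at its other probe. Rrm2, a subunit of ribonucleotide reductase, changed by 1.29 ± 0.16, and Chaf1a is shared with the chaperones. Without Input replicate 1 or 2 limma called 0 of the 23, and spike-in scaling called 0 higher and 15 lower.

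**Figure D4:**
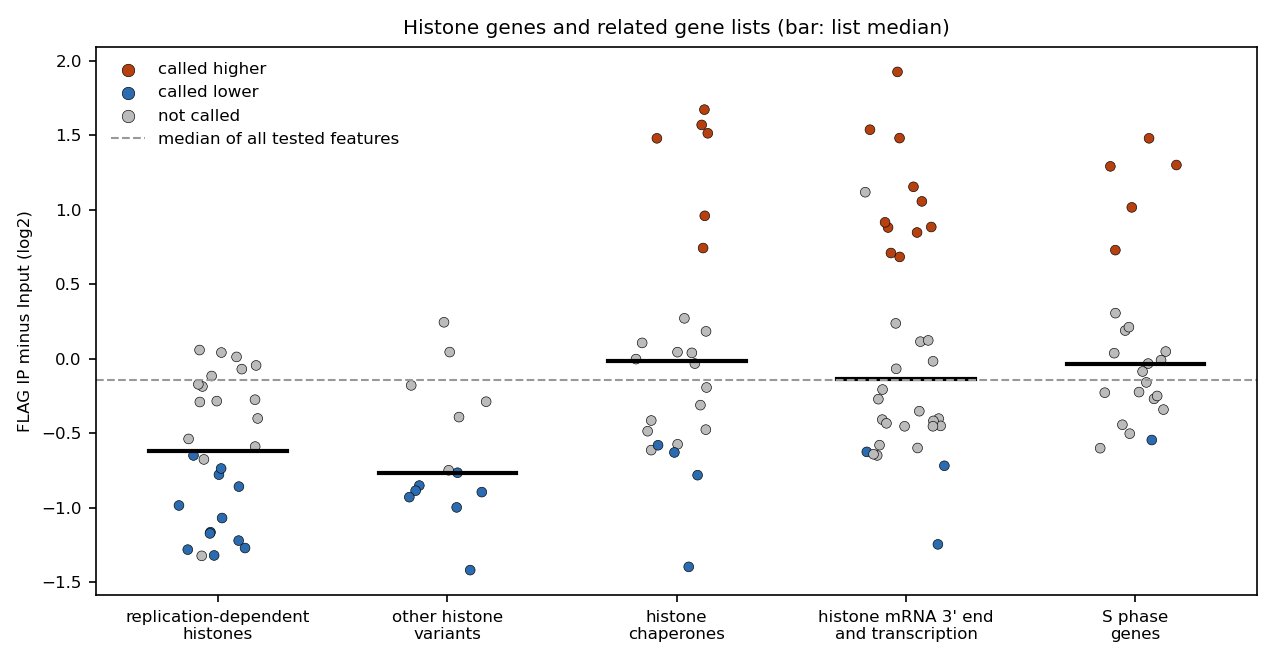
Change of each tested gene (FLAG IP minus Input, log2, vertical axis) in the histone set and 4 related lists; orange points were called higher, blue lower and grey not called, bars are list medians and the dashed line is the median of all tested features. The histone set and the other variants hold 0 genes called higher and have medians of −0.62 and −0.77, whereas the other lists have medians between −0.14 and −0.02.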

How the data were processed

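Cy3-labelled RNA of 2 Input and 2 FLAG IP samples was hybridised to 4 arrays. The deposited files hold the authors' Agilent Feature Extraction output (version 9.5 per the submitters' processing notes), with a background-corrected signal intensity per spot. The deposited series table holds log2 values, and 99.6% of its probes lay within 0.01 of the log2 processed signal plus a constant per array. Its 75th percentiles are 9.76 on every array, its medians 6.18, 6.25, 6.25 and 6.15, and no source used here names the tool that scaled it.

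From these files, control spots and outlier-flagged spots (62 to 90 per array) were left out, spots of a probe averaged, and log2 signal taken minus each array's 75th percentile. Of 41174 probes 22951 were named through RefSeq accessions. The brightest probe stood for a gene. Features well above background on both arrays of a group were tested with limma 3.58.1 in R 4.3.3 (lmFit, eBayes, two-sided, Benjamini-Hochberg), which was checked on simulated data. Alternatives were other scalings, background correction, filters, probe rules, moderation, a replicate block and leaving out each array. The normexp alternative used the median spot signal. In the related lists, up to 4 called genes with the largest changes (S phase 3), Slbp and Npat were named, and any member of the histone set could be named. The members and lists were chosen with earlier results of these data known.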

Additional observations from a re-analysis of the deposited data

How the results depend on the processing

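With 2 arrays per group, signal over background and the number of arrays limit what can be called. Under 14 other ways of processing 0 histone genes were called higher. Leaving out 1 array gave 1332 to 7898 called features, 0 to 14 histone genes and a histone median of −0.79 to −0.45; where 1 array was left in a group, it is assumed to vary like the other group. Spike-in scaling gave 14312 called features, 28 histone genes and a histone median of −1.60, with the same SE of 0.41 for each histone gene. No filter on dim probes gave 4 histone genes of 31, beside 13 at an unadjusted p under 0.05, and called 16.9% of all features. Under spike-in scaling H4c14 stood at −0.92, H4c4 at −0.94, H4c6 at −0.97, Slbp at −0.10, Lsm11 at −0.10, Zfp473 at −0.30, Cstf1 at −0.064, Nfya at −0.27, Xrn1 at −0.13, Chaf1b at −0.020, Daxx at −0.24 and Gmnn at −0.25, each above 0 under the 75th percentile scaling, and by construction that scaling lowers every gene alike. Some genes that were not called also changed sign. Quantile normalization gave 0.21 for H3c14 and 0.062 for H3c4, and normexp background correction 0.16 for H1f3, 0.21 for H1f6, 0.044 for H2ac4, −0.027 for H4c14 and −0.00093 for H4c4. Leaving out 1 array gave −0.96 to 0.59 for H1f3, −0.24 to 0.011 for H1f4, −0.33 to 0.19 for H2ac4, −0.42 to 0.072 for H2bc21, −0.24 to 0.15 for H4c1, −0.037 to 0.15 for H4c14, −0.095 to 0.18 for H4c4 and −0.11 to 0.13 for H4c6. The replicate numbers are shared between the groups, but the labels do not say what they share. Same-numbered samples deviated in opposite ways (correlation −0.38), which cannot show whether they were paired. A fit with the replicate number as a block called 4557 features and 7 histone genes. The crossed pairing, added after seeing the data, called 10821 features and 14 histone genes. Where no cause is named, the cause was not tested. The same alternatives were run on the related lists, which was also added after seeing the data. A slide block was not run, since all arrays lay on 1 slide.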
